A study of Homo sapiens with 6 samples.

Results

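The genes described here are those that the deposited annotation places in the KEGG pathway Lysosome, apart from genes whose symbols begin with ABC or SLC. The pathway lists 123 of the 20030 genes in the count table, and leaving out ABCA2, ABCB9, SLC11A1, SLC11A2 and SLC17A5 gave 118 members. The rule uses annotation alone, and it was chosen with earlier results of these data known. They comprise 52 hydrolases, 28 membrane proteins and 38 other genes, of which 31 act in delivery of proteins to the lysosome. The samples were polyA RNA from HepG2, an established human hepatoma cell line. The 3 sh-ctrl libraries came from cells that received a control short hairpin RNA and the 3 sh-KIF11 libraries from cells that received a hairpin against KIF11, the kinesin motor that pushes spindle poles apart in mitosis. By the study's methods the hairpins were carried by a lentiviral pLKO.1 vector, which the controls received too. The labels give 1 treatment name per group and do not say whether the 3 libraries of a group came from separate cultures, so the p-values measure the spread between these libraries, which may be technical.

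Lysosomes are acidic compartments in which hydrolases break down proteins, glycans, lipids and nucleic acids. The hydrolases are tagged with mannose 6-phosphate in the Golgi and carried by receptors in clathrin-coated vesicles, while a proton pump, the V-ATPase, acidifies the lumen and heavily glycosylated membrane proteins line it. GLB1 encodes the lysosomal β-galactosidase whose activity is stained in the senescence-associated β-galactosidase assay, and senescent cells are known for a large lysosomal compartment. Many lysosomal genes are targets of TFEB, TFE3 and MITF, related transcription factors that bind the motif CACGTG.

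Library totals ran from 18167773 to 19583282 counts, and 12369 genes were tested. Levels are given as CPM, counts scaled to a common library size and by trimmed mean of M-values (TMM), and differences as log2 fold changes of sh-KIF11 against sh-ctrl with their standard error (SE) and the Benjamini-Hochberg adjusted p of edgeR's quasi-likelihood test over all tested genes. A gene was called where that p was under 0.05. KIF11 was at 111, 116 and 121 CPM in the sh-ctrl libraries and at 72.2, 71.4 and 62.9 CPM in the sh-KIF11 libraries. All 3 sh-KIF11 values lay below all 3 controls (log2 -0.75, SE 0.0573, edgeR adjusted p = 4.22e-15), the direction that the group name implies. Across all genes 69.1% of those tested were called, 34.4% as higher and 34.7% as lower, and 11.7% were called with a change of at least 1 on the log2 scale. Hepatocyte transcripts differed between the groups as well: 7 of 8 hepatocyte markers were lower, and their summed level was 31880 to 33430 CPM in sh-ctrl and 14124 to 15268 CPM in sh-KIF11. Of 8 monocyte and macrophage markers CSF1R, CD163 and TYROBP were at 0 in all 6 libraries and PTPRC had at most 1 count. CD14 had 25, 24 and 15 reads in sh-ctrl and 9, 8 and 4 reads in sh-KIF11 (1.21 and 0.346 CPM, log2 -1.78, SE 0.408). It passed the filter on low counts only through the sh-ctrl libraries, in which it was higher, so its values are given as a description. FCER1G, at 0.604 and 0.843 CPM, was not called. ITGAM, not tested, had 1, 2 and 0 reads against 5, 7 and 4 reads. LYZ, lysozyme, fell from 2613 to 511 CPM (log2 -2.35, SE 0.0672, edgeR adjusted p = 1.83e-29). It made up nearly all of the list's sum of 2394 to 2901 CPM in sh-ctrl and 460 to 596 CPM in sh-KIF11. Of 6 fibroblast markers DCN and THY1 were at 0, and the list summed to 2.55 to 3.88 CPM in sh-ctrl and 1.4 to 1.89 CPM in sh-KIF11. The endothelial list of 5 markers, with TEK at 0, summed to 3.16 to 3.56 CPM in sh-ctrl and 4.69 to 4.98 CPM in sh-KIF11. The part of these shifts in the results for lysosomal genes was not tested.

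Of the 118 members, 105 passed the filter on low counts and 80 of these were called (76.2%, beside 69.1% of all tested genes). Among them 55 were lower (52.4% of the tested members, beside 34.7% of all) and 25 were higher (23.8%, beside 34.4%). The hydrolases carried most of the lower calls: 30 of 44 tested hydrolases were lower (68.2%) and 7 were higher, with a median log2 fold change of -0.34. Membrane proteins were more mixed, with 14 of 26 lower (53.8%), 7 higher and a median of -0.13. All 5 genes left out by symbol were tested, and 4 of them were lower (edgeR): ABCA2 at log2 -1.03 (SE 0.0851), ABCB9 at -0.72 (SE 0.129), SLC17A5 at -0.54 (SE 0.071) and SLC11A2 at -0.4 (SE 0.0534). SLC11A1, with 5 to 14 reads per library, was not called (log2 -0.34, SE 0.458). With these genes kept in, the median of the membrane proteins was -0.25. The 29 tested delivery genes split evenly, 9 higher and 9 lower (31% each), with a median of -0.03. The median over all tested genes was 0 on the same scale. Changes were mostly modest in size, and 8 members (7.62%, beside 11.7% of all tested genes) were called with at least 1 on the log2 scale, 5 upward and 3 downward. Full separation of the 3 knockdown values from the 3 control values, in either direction, was common. It was seen in 8808 of the 12369 tested genes and in 81 of the 105 tested members. Separation in a single gene, as given below, therefore does not set that gene apart from most tested genes.

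These directions are set against the median tested gene, because the libraries differ in composition: TMM factors were 0.922 to 0.926 in sh-ctrl and 1.08 to 1.09 in sh-KIF11. With library totals alone the median of all tested genes moved to 0.24, the split over all genes changed from 4254 higher and 4294 lower to 6621 higher and 2373 lower, and that of the members from 25 higher and 55 lower to 46 higher and 30 lower. The hydrolases then had 11 higher and 20 lower (7 and 30 with TMM) and a median of -0.11, and the membrane proteins 13 higher and 6 lower and a median of 0.1, with the sign turned. Measured from the median of all genes the hydrolases stood at -0.35 and the membrane proteins at -0.13 with TMM. Library totals gave the same distances, because a change of scaling moves all genes by nearly the same amount. These distances therefore do not show which scaling is right. Of the 30 hydrolases called lower, 20 were also called lower with RLE, upper-quartile and library-total scaling, as were 6 of the 14 membrane proteins. All 25 members called higher kept that call under these 3 scalings. These put the median of all tested genes at 0.01, 0.08 and 0.24, so none of them moves values down. They could weaken lower calls but not higher ones, and the 2 directions cannot be compared by them.

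**Figure D1:**
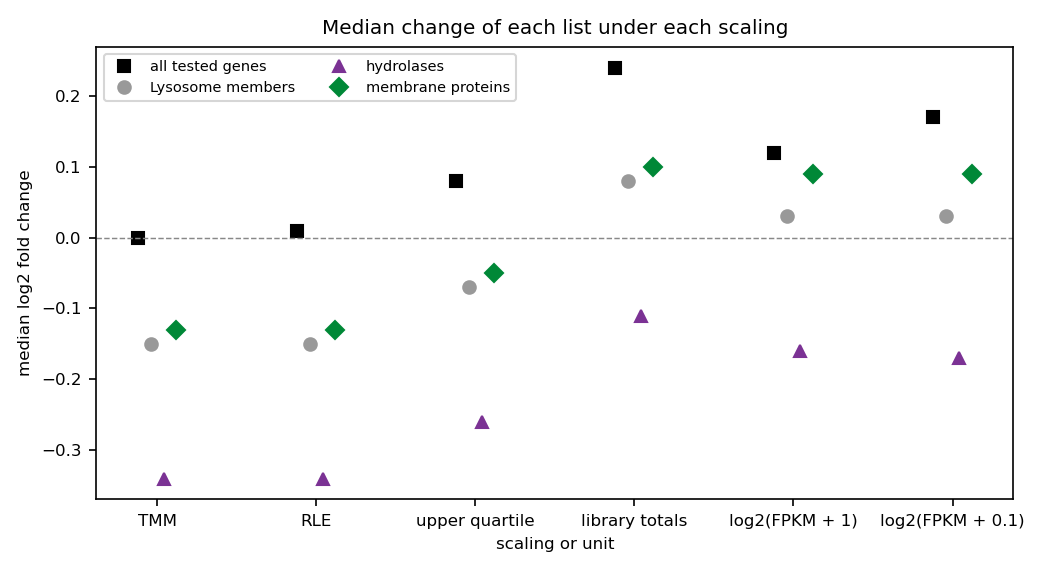
Median log2 fold change (vertical axis, sh-KIF11 against sh-ctrl) of all 12369 tested genes, 105 Lysosome members, 44 hydrolases and 26 membrane proteins under 4 scalings of the counts and on the deposited FPKM values with pseudocounts of 1 and 0.1 (horizontal axis). The hydrolase median lies below 0 under each of these, whereas the medians of all members and of membrane proteins are below 0 with TMM, RLE and upper-quartile scaling and above it with library totals and FPKM.

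As a share of all counts, the 118 members together took 1.26% ± 0.012 in the control libraries and 1.27% ± 0.0005 in the knockdown libraries (mean ± SD, n = 3 each), ranges that overlapped. Within that share the hydrolases fell from 0.522% ± 0.0087 to 0.434% ± 0.0022. The delivery genes took 0.33% ± 0.0027 in sh-ctrl and 0.385% ± 0.0016 in sh-KIF11, whereas with TMM scaling they summed to 3576 and 3560 CPM on average, with overlap. The membrane proteins took 0.295% ± 0.0045 in sh-ctrl and 0.303% ± 0.00011 in sh-KIF11, opposite in direction to their TMM median and to their TMM sum of 3202 and 2795 CPM. Hydrolase, delivery and membrane protein shares did not overlap between the groups, for which the exact permutation test of 3 against 3 libraries gives its smallest 2-sided p, 0.1. Without CTSD, the hydrolase with the most counts, the share was 0.43% in sh-ctrl and 0.382% in sh-KIF11, again without overlap.

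Promoters are printed for members whose values are described further on, to show the sequence context of the CACGTG motif in genes that were lower, higher and not called. Windows from 250 bases before to 50 bases after annotated transcription starts were taken from RefSeq (GRCh38.p14), where 88 of the 118 members matched by gene identifier. The longer motif GTCACGTG, which contains CACGTG, was present on either strand in at least 1 window of 18 of these 88 members (20.5%), of 540 of 10111 tested genes (5.34%) and of 800 of all 27305 genes in the table (2.93%). CACGTG itself, which reads the same on both strands, was found in 23 members (26.1%) and in 12.7% of tested genes. In the following stretches, each 5′ to 3′ on the gene's strand, capitals mark the first match to GTCACGTG, to its reverse complement CACGTGAC or, in NEU1, to CACGTG, and the LAMP1 stretch holds a second GTCACGTG in lower case.
NEU1: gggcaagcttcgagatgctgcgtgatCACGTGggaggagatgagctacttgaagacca
CTSD: ccggccgcgccCACGTGACcggtccgggtg
GAA: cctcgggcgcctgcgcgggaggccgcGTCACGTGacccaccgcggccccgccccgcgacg
CTSA: ggaggaagactGTCACGTGgcgccggagtt
LAMP1: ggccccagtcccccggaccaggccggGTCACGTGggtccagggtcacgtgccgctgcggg
MCOLN1: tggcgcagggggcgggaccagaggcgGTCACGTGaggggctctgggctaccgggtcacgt
GALNS: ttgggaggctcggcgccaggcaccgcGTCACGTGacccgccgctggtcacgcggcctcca
IGF2R: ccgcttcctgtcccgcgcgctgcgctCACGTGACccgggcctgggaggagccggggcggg

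The NEU1 stretch lies at chr6:31862916-31862973 on the minus strand, CTSD at chr11:1763956-1763985 (minus), GAA at chr17:80101477-80101536 (plus), CTSA at chr20:45891280-45891309 (plus), LAMP1 at chr13:113297019-113297078 (plus), MCOLN1 at chr19:7522555-7522614 (plus), GALNS at chr16:88857090-88857149 (minus) and IGF2R at chr6:159968924-159968983 (plus). Each motif begins between 43 bases (MCOLN1) and 194 bases (LAMP1) before a RefSeq start. The CTSD and CTSA stretches overlap exons of other annotated transcripts and were kept to 30 bases. GTCACGTG was found in 10 of 44 matched members that were lower (22.7%), 6 of 18 that were not called (33.3%) and 1 of 16 that were higher (6.25%). Over all tested genes it was found in 5.55% of those lower and 5.28% of those higher. These are counts of letters in windows and were not tested against the expression changes.

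The transcript of GLB1, the senescence-associated enzyme, was lower in the knockdown. It was at 111, 103 and 101 CPM in the sh-ctrl libraries (105 ± 5.46, SD, n = 3) and at 70.7, 67.7 and 67.6 CPM in the sh-KIF11 libraries (68.7 ± 1.75). The groups did not overlap, and the level was 34.4% lower (log2 -0.61, SE 0.0555, edgeR adjusted p = 8.28e-13). These values rest on 1334 to 1977 reads per library. On the deposited values scaled for transcript length and depth (FPKM) the means were 23.5 in sh-ctrl and 18 in sh-KIF11, and over all the alternatives run GLB1 stayed lower and past the threshold, with log2 values from -0.64 to -0.36. GLB1 lies on chromosome 3 at 32996608 to 33097230 on the minus strand (GENCODE release 29, GRCh38), and TMPPE has exons that overlap it on the same strand. Reads in the shared stretch cannot be assigned to a single gene, and how the counting treated them is not given in the sources used here. GLB1 ranked 9th from the lowest log2 fold change among the 44 tested hydrolases. These are RNA levels, whereas the senescence stain reads enzyme activity. By that stain the paper reports the other direction, with more positive cells in HepG2 after KIF11 knockdown. The stain is not its only evidence of senescence there: it also reports more heterochromatin foci and higher transcripts of secreted senescence factors and of CDKN2A. How the GLB1 transcript relates to the stain was not tested.

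The lysosomal multienzyme complex joins GLB1 with neuraminidase 1, protective protein/cathepsin A and, in some preparations, the sulfatase GALNS. NEU1, which removes terminal sialic acids, was at 285, 269 and 254 CPM in sh-ctrl and 132, 134 and 137 CPM in sh-KIF11 (log2 -1, SE 0.0511, edgeR adjusted p = 7.96e-21). CTSA, which shields GLB1 and NEU1 from degradation, was at 465, 448 and 438 CPM against 342, 328 and 330 CPM (log2 -0.43, SE 0.0477, edgeR adjusted p = 1.34e-10). In all 3 of GLB1, NEU1 and CTSA every knockdown library was below every control library, and most tested genes were separated in one direction or the other. GALNS, by contrast, was at 24.2 to 29.8 CPM in sh-ctrl and 25.5 to 27.6 CPM in sh-KIF11 and was not called (log2 -0.01, SE 0.0813, edgeR adjusted p = 0.883), although with library totals alone its value was 0.22 and past the threshold (edgeR adjusted p = 0.0164).

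Glycosidases cut sugars from glycoproteins, glycolipids and glycosaminoglycans. Of 16 tested, 14 were lower (87.5%, beside 34.7% of all tested genes) and 1 was higher (6.25%, beside 34.4%). Their median log2 fold change was -0.41. GUSB, β-glucuronidase, was at 80.6, 79.6 and 79.9 CPM in sh-ctrl and at 53.6, 47.1 and 47.7 CPM in sh-KIF11 (log2 -0.69, SE 0.0613). FUCA1, the lysosomal α-fucosidase, which is another enzyme used as a mark of senescence, was at 57.3, 57.9 and 61.7 CPM against 43.4, 45.3 and 45.6 CPM (log2 -0.40, SE 0.0647, edgeR adjusted p = 8.97e-07). Both had knockdown values wholly below the controls. GAA, the acid α-glucosidase that degrades glycogen, fell from a mean of 211 to 157 CPM (log2 -0.43, SE 0.0526). HEXA, which acts on ganglioside GM2, fell by 0.16 on the log2 scale (SE 0.05, edgeR adjusted p = 0.00513), but with library totals its value became 0.07 and was not called (edgeR adjusted p = 0.191). IDUA, α-L-iduronidase, was the glycosidase that rose, from 12 to 20 reads per library in sh-ctrl to 34 to 40 reads in sh-KIF11 (log2 1, SE 0.306, edgeR adjusted p = 0.00403), and SLC26A1 overlaps it on the other strand.

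Among 12 tested proteases 8 were lower (66.7%, beside 34.7% of all tested genes) and 3 were higher (25%, beside 34.4%). CTSD, the major aspartic protease of the lysosome, had the highest level per transcript length of all members in sh-ctrl, at 360, 357 and 332 FPKM, against 210, 201 and 195 FPKM in sh-KIF11. Its counts gave 1021, 1020 and 935 CPM in sh-ctrl and 507, 480 and 469 CPM in sh-KIF11. The knockdown level was 51.1% lower and the groups were far apart (log2 -1.03, SE 0.0495, edgeR adjusted p = 1.1e-21). CTSH, an aminopeptidase, was at 239, 241 and 245 CPM against 136, 132 and 150 CPM (log2 -0.79, SE 0.0516). CTSB, an abundant cysteine protease, was at 682, 677 and 654 CPM against 509, 500 and 506 CPM (log2 -0.41, SE 0.0467). CTSV, a cathepsin close to CTSL, fell from 12.4 to 8.26 CPM (log2 -0.59, SE 0.113). Each of these had knockdown libraries below all controls. TPP1, a tripeptidyl peptidase, was at 178 to 188 CPM in sh-ctrl and 178 to 185 CPM in sh-KIF11 (log2 -0.01, SE 0.049, edgeR adjusted p = 0.829); with library totals it was at 0.22 and called.

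The proteases that rose were ones with few reads. CTSE, an aspartic protease of endosomes, had 29, 28 and 11 reads in sh-ctrl and 141, 179 and 128 reads in sh-KIF11, the largest rise of any tested member (log2 2.52, SE 0.217, edgeR adjusted p = 1.64e-13). CTSS, a cysteine protease known from antigen-presenting cells, was at 1.68, 1.39 and 2.67 CPM against 2.84, 3.57 and 3.45 CPM (log2 0.79, SE 0.237, edgeR adjusted p = 0.00336). CTSK, a collagen-degrading protease of osteoclasts, was at 0.571 and 1.09 CPM on average (log2 0.93, SE 0.369, edgeR adjusted p = 0.0239) and was not called by DESeq2 (adjusted p = 0.068). Its edgeR call was also lost without sh-ctrl 1 (adjusted p = 0.0755), sh-ctrl 2 (0.0751), sh-KIF11 2 (0.0709) or sh-KIF11 3 (0.0688).

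Of 9 tested enzymes acting on lipids, nucleic acids or phosphate groups, 7 were lower (77.8%, beside 34.7% of all tested genes) and none was higher. PPT1, which removes palmitate from proteins, was at 353, 347 and 359 CPM in sh-ctrl and 194, 200 and 194 CPM in sh-KIF11 (log2 -0.85, SE 0.048, edgeR adjusted p = 2.89e-19). DNASE2, the acid DNase, was at 28.3, 27.4 and 25.7 CPM against 15.2, 16.9 and 17.1 CPM (log2 -0.73, SE 0.0843). ACP2, a lysosomal acid phosphatase, fell from 35.5 to 22.9 CPM (log2 -0.64, SE 0.083), and NR1H3 overlaps it on the other strand. Controls were above knockdown libraries throughout for these 3 genes.

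Sulfatases remove sulfate from glycosaminoglycans and sulfolipids. Of 7 tested, 3 were higher (42.9%, beside 34.4% of all tested genes), 1 was lower (14.3%, beside 34.7%) and their median was 0.04. Their difference from the other hydrolases was not tested. ARSG was at 11.2, 10.6 and 10.4 CPM in sh-ctrl and 21.3, 22.9 and 23.6 CPM in sh-KIF11 (log2 1.07, SE 0.0933, edgeR adjusted p = 2.22e-13). IDS, iduronate 2-sulfatase, was at 22.8, 22.8 and 24.9 CPM against 43.7, 50 and 48 CPM (log2 1.01, SE 0.0768, edgeR adjusted p = 3.65e-15). In both the knockdown libraries were about 2 times the controls, with folds of 2.1 for ARSG and 2.01 for IDS. ARSB, arylsulfatase B, went the other way, from 116, 112 and 116 CPM to 66.1, 68.4 and 63.8 CPM (log2 -0.8, SE 0.054, edgeR adjusted p = 1.05e-16). ARSG overlaps SLC16A6 and WIPI1 on the other strand, and IDS overlaps other annotated transcripts on its own strand. How the counting treated reads in these shared stretches is not given in the sources used here.

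**Figure D2:**
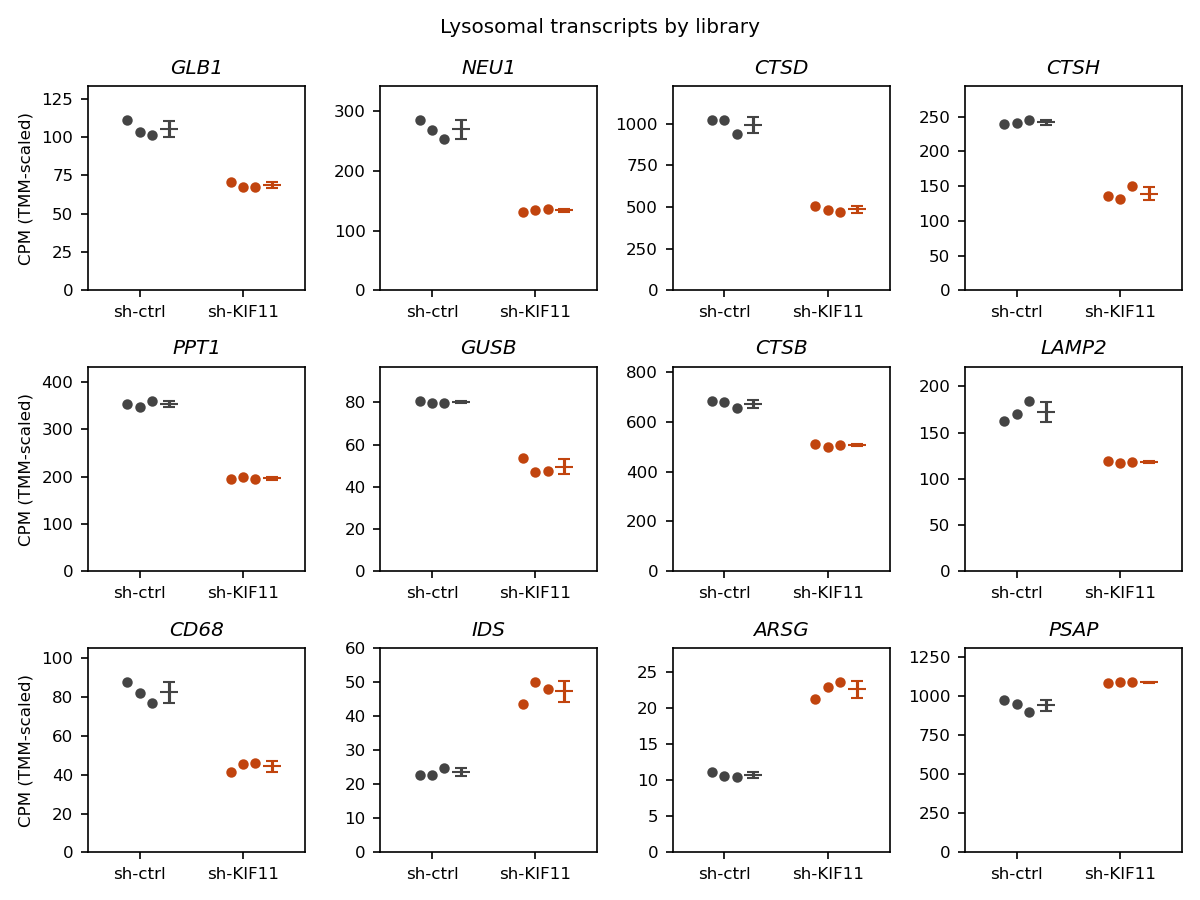
TMM-scaled CPM (vertical axes from 0) of 12 members in the 3 sh-ctrl (grey) and 3 sh-KIF11 (orange) libraries; points are libraries and the bar beside them is the mean with its SD. GLB1, NEU1, CTSD, CTSH, PPT1, GUSB, CTSB, LAMP2 and CD68 lie lower in every sh-KIF11 library than in any control, and IDS, ARSG and PSAP lie higher.

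Soluble helper proteins of the hydrolases were divided. PSAP, the precursor of the saposins that present sphingolipids to their enzymes, was at 975, 949 and 902 CPM in sh-ctrl and 1089, 1092 and 1091 CPM in sh-KIF11 (log2 0.21, SE 0.0472, edgeR adjusted p = 0.000131). Per transcript length PSAP was the highest member in sh-KIF11, at a mean of 327 FPKM (245 in sh-ctrl), where CTSD had a mean of 202 FPKM (350 in sh-ctrl). GM2A, the activator that presents ganglioside GM2 for breakdown, was at 129, 122 and 123 CPM against 82.5, 77.4 and 83.3 CPM (log2 -0.62, SE 0.053, edgeR adjusted p = 1.34e-13). NPC2, which hands cholesterol to NPC1 in the lumen, was at 116, 122 and 121 CPM against 78.4, 77.1 and 77.2 CPM (log2 -0.62, SE 0.0523, edgeR adjusted p = 7.14e-14). The groups did not overlap for any of these genes.

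The structural proteins of the lysosomal membrane were mostly lower. Of 10 tested, 7 were lower (70%, beside 34.7% of all tested genes) and 2 higher (20%, beside 34.4%). LAMP1, one of the most abundant of them, was at 393, 384 and 378 CPM in sh-ctrl and 332, 324 and 317 CPM in sh-KIF11 (log2 -0.25, SE 0.0473, edgeR adjusted p = 1.47e-05). With library totals its value was -0.02 and not called (edgeR adjusted p = 0.766). LAMP2, which also serves chaperone-mediated autophagy, was at 162, 170 and 184 CPM against 119, 117 and 118 CPM (log2 -0.54, SE 0.052, edgeR adjusted p = 3.24e-12). CD68, a glycoprotein used as a macrophage marker, had the largest fall of the class, from 87.7, 82.2 and 77.1 CPM to 41.2, 45.5 and 46 CPM (log2 -0.9, SE 0.0636, edgeR adjusted p = 4.2e-16). The tetraspanin CD63 was at 183 and 169 CPM on average (log2 -0.11, SE 0.0495, edgeR adjusted p = 0.0375) and with library totals turned to 0.12 (edgeR adjusted p = 0.0344), so its direction depends on the scaling. Its call was also lost without any 1 of the libraries sh-ctrl 1, sh-ctrl 2 and sh-KIF11 1 to 3 (edgeR adjusted p = 0.0741 to 0.208). LITAF, a regulator of endosomal sorting, was at 271 and 222 CPM (log2 -0.29, SE 0.0477), a call lost with library totals (edgeR adjusted p = 0.275). LAPTM4A, the membrane protein with the highest FPKM, had a mean of 198 FPKM in both groups, and its log2 change of -0.21 with TMM (SE 0.055, edgeR adjusted p = 0.00105) became 0.02 with library totals.

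In that class 2 genes rose. LAPTM5, a lysosomal protein known mainly from blood cells, had 68, 46 and 67 reads in sh-ctrl and 214, 208 and 224 reads in sh-KIF11 (log2 1.64, SE 0.15, edgeR adjusted p = 9.24e-13). SCARB2, or LIMP-2, a receptor that also sorts enzyme cargo to the lysosome, was at 113, 110 and 118 CPM against 154, 153 and 155 CPM (log2 0.44, SE 0.0506, edgeR adjusted p = 3.87e-10). Neither gene's groups overlapped.

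Channels, carriers and other membrane proteins of the pathway split into 3 higher (37.5%, beside 34.4%) and 4 lower (50%, beside 34.7%) of 8 tested. HGSNAT, which acetylates heparan sulfate across the membrane, rose from 25.9 to 40.6 CPM (log2 0.65, SE 0.0739, edgeR adjusted p = 3.07e-10), ENTPD4, a nucleotide phosphatase, from 53.7 to 77.4 CPM (log2 0.53, SE 0.0616, edgeR adjusted p = 6.73e-10) and MFSD8, a transporter-like protein, from 12.7 to 15.7 CPM (log2 0.31, SE 0.102, edgeR adjusted p = 0.00759). The MFSD8 call was lost without sh-ctrl 3 (edgeR adjusted p = 0.0658) or sh-KIF11 1 (0.0571). The falls included SORT1, the sorting receptor sortilin, at 217, 227 and 233 CPM in sh-ctrl and 143, 147 and 137 CPM in sh-KIF11 (log2 -0.66, SE 0.0502, edgeR adjusted p = 3.08e-15). NPC1, the membrane cholesterol transporter, was at 108, 111 and 103 CPM against 75.3, 73.9 and 82.7 CPM (log2 -0.48, SE 0.0556, edgeR adjusted p = 5.91e-10), so that both genes of the NPC1 and NPC2 pair were lower. CLN3, whose loss causes juvenile Batten disease, fell from 63.8 to 50.9 CPM (log2 -0.33, SE 0.0634), a call lost with library totals (edgeR adjusted p = 0.17). MCOLN1, the lysosomal calcium channel, was not called (14.4 and 16 CPM, log2 0.16, SE 0.0995, edgeR adjusted p = 0.152), but was called as higher without sh-ctrl 1 (edgeR adjusted p = 0.0257) and with library totals (0.000584). A separate list of 7 lysosomal membrane genes that the pathway entry leaves out had 6 higher (85.7%, beside 34.4% of all tested genes) and none lower, at a median of 0.43. TMEM106B in that list went from 34.8 to 65.5 CPM (log2 0.91, SE 0.0661) and OSTM1, a subunit of the chloride exchanger CLCN7, from 19.5 to 31.3 CPM (log2 0.68, SE 0.0861).

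The V-ATPase is built of a membrane sector through which protons pass and a cytosolic sector that hydrolyses ATP. In the membrane sector 3 of 8 tested members were lower (37.5%, beside 34.7% of all tested genes) and 2 higher (25%, beside 34.4%). Their median was 0.07. ATP6V0C, the proteolipid ring subunit, was at 213, 212 and 185 CPM in sh-ctrl and 163, 158 and 166 CPM in sh-KIF11 (log2 -0.33, SE 0.0529), ATP6V0B fell from 140 to 106 CPM (log2 -0.4, SE 0.0523) and the accessory subunit ATP6AP1 from 142 to 108 CPM (log2 -0.4, SE 0.0532). The call for ATP6V0C was lost with library totals (log2 -0.1, edgeR adjusted p = 0.088). ATP6V0A2 rose from 19.3 to 24.7 CPM (log2 0.36, SE 0.0885, edgeR adjusted p = 0.000402), and ATP6V0D2, a tissue-restricted subunit, had 1, 6 and 5 reads against 16, 12 and 22 reads (log2 1.83, SE 0.512, edgeR adjusted p = 0.0017). Of the cytosolic sector the pathway term lists only ATP6V1H, a regulatory subunit, which rose from 28.8 to 35.6 CPM (log2 0.31, SE 0.0759, edgeR adjusted p = 0.000439). With the other genes of that sector added, 6 of 9 tested were higher (66.7%, beside 34.4%) and 2 lower (22.2%, beside 34.7%), at a median of 0.25. ATP6V1D in that list rose from 33.3 to 48.9 CPM (log2 0.56, SE 0.0733). Of 3 membrane-sector genes that the term leaves out, 1 was lower: ATP6V0E2 fell from 196 to 106 CPM (log2 -0.89, SE 0.0529). ATP6V0E1 (log2 0.03) and ATP6AP2 (log2 -0.01) were not called with TMM and were called as higher, at 0.26 and 0.22, with library totals.

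Among the delivery genes, 5 that were tested make or read the mannose 6-phosphate tag. Of these, 3 were lower (60%, beside 34.7% of all tested genes) and 1 higher (20%, beside 34.4%). NAGPA, the uncovering enzyme that completes the tag, was at 72.4, 73.1 and 70.9 CPM against 48.3, 50.1 and 52.3 CPM (log2 -0.52, SE 0.0605, edgeR adjusted p = 5.21e-10). GNPTG, a subunit of the phosphotransferase that starts the tag, was at 41.7 and 37.2 CPM (log2 -0.16, SE 0.0746, edgeR adjusted p = 0.0483) and went to 0.07 with library totals. That call was lost without sh-ctrl 3 (edgeR adjusted p = 0.185), sh-KIF11 2 (0.0967) or sh-KIF11 3 (0.223) and with DESeq2 (0.0715). The cation-independent receptor IGF2R was at 651, 615 and 580 CPM in sh-ctrl and 734, 744 and 703 CPM in sh-KIF11 (log2 0.24, SE 0.0491, edgeR adjusted p = 3.79e-05). The smaller receptor M6PR was at 134, 136 and 144 CPM against 118 CPM in each sh-KIF11 library (log2 -0.22, SE 0.0508, edgeR adjusted p = 0.000162), a value that became 0.01 with library totals.

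Of 24 tested adaptor, GGA and clathrin genes, 8 were higher (33.3%, beside 34.4% of all tested genes), 6 lower (25%, beside 34.7%) and 10 not called. AP1M2, the epithelial medium subunit of the adaptor complex AP-1, had the largest fall of any tested member, from 42.7, 41.9 and 42.1 CPM to 12.4, 16.8 and 16 CPM (log2 -1.49, SE 0.0864, edgeR adjusted p = 6.84e-19). Other AP-1 subunits moved by less. AP1G2 rose from 61.5 to 83.1 CPM (log2 0.43, SE 0.0622) and AP1S3 from 24.4 to 32.2 CPM (log2 0.4, SE 0.0831), while AP1B1 was at 166 and 132 CPM (log2 -0.33, SE 0.0518), a call lost with library totals (edgeR adjusted p = 0.0745). AP3M2, a subunit of the adaptor AP-3, rose from 13.4 to 16.7 CPM (log2 0.32, SE 0.096), and AP4M1 of AP-4 was at 8.36 and 6.55 CPM (log2 -0.35, SE 0.131, edgeR adjusted p = 0.0159). The AP4M1 call was lost with library totals (edgeR adjusted p = 0.403), without sh-ctrl 2 (0.07) and without sh-KIF11 2 (0.0839). CLTC, the clathrin heavy chain, was not called with TMM (831 and 802 CPM, log2 -0.05, SE 0.0475, edgeR adjusted p = 0.344) and was called as higher, at 0.18, with library totals (edgeR adjusted p = 0.000852).

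**Figure D3:**
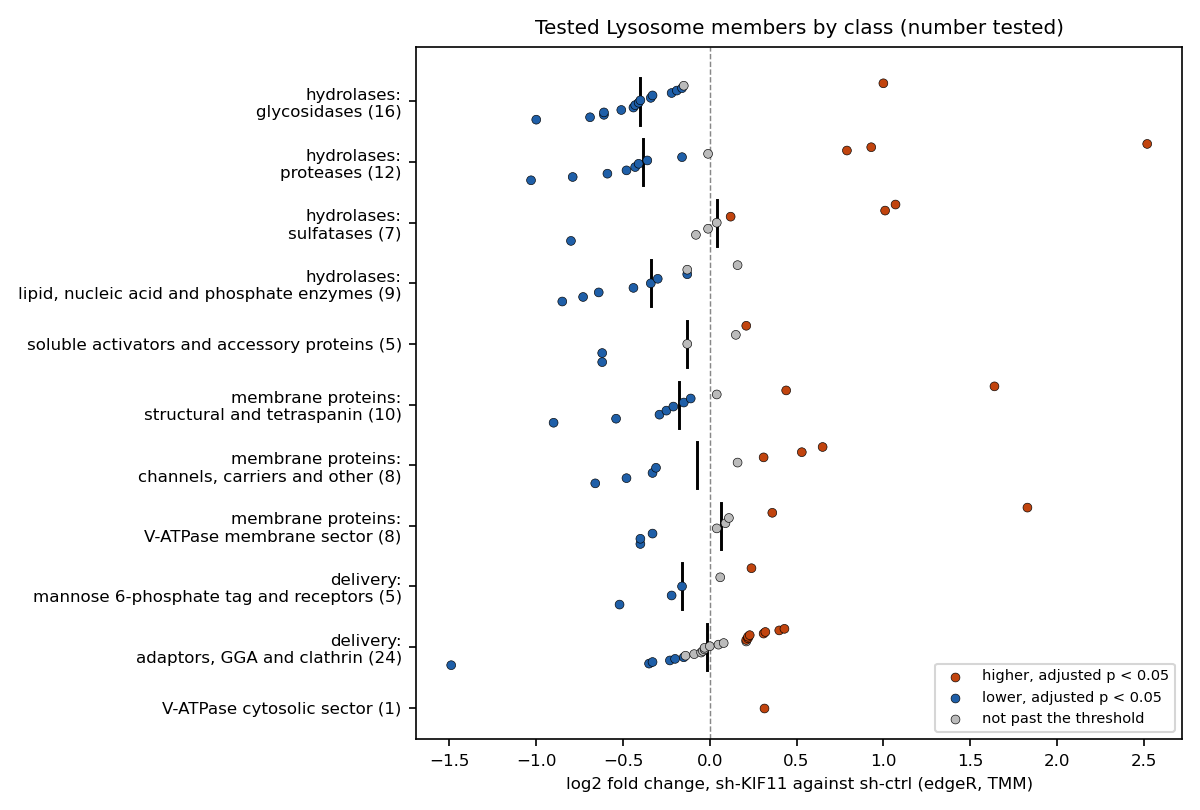
Log2 fold change of each of the 105 tested members (horizontal axis) by class (vertical axis, number tested in brackets); points are genes coloured by their edgeR call with TMM scaling and black bars are class medians. Glycosidases (-0.41), proteases (-0.38) and lipid, nucleic acid and phosphate enzymes (-0.34) have medians well below 0, and sulfatases (0.04) and the V-ATPase membrane sector (0.07) have medians above it.

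The sh-ctrl level of a gene is also the denominator of its fold change. A gene with few reads could pass the filter through the group in which it was higher, as ATP6V0D2 and CTSK did. The levels of the called genes are therefore given as a description. The 30 hydrolases called lower had a median sh-ctrl level of 22.1 FPKM (range 2.44 to 350), and none was under 1 FPKM. The 7 called higher had a median of 0.39 FPKM (range 0.12 to 31.1), and 5 of them were under 1 FPKM. Membrane proteins showed the same order, with medians of 51.6 FPKM for the 14 lower and 2.66 FPKM for the 7 higher. Over all tested genes the medians were 16.4 FPKM for those lower and 2.72 FPKM for those higher, the same order as among the lysosomal genes. Under 1 FPKM were 4.19% of all genes called lower and 30.9% of all called higher.

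**Figure D4:**
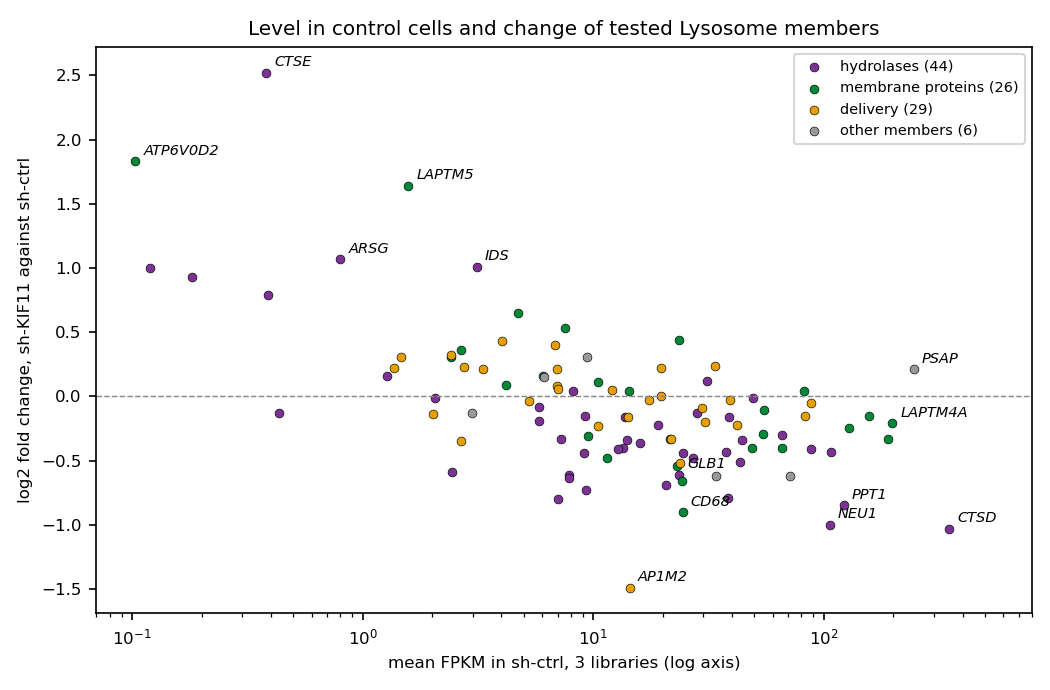
Log2 fold change (vertical axis, edgeR with TMM) of the 105 tested members against their mean FPKM in the 3 sh-ctrl libraries (horizontal log axis), with each point a gene coloured by group. CTSD (350 FPKM, log2 -1.03) sits at the far right below 0, and CTSE (0.38 FPKM, log2 2.52) and ATP6V0D2 (log2 1.83) at the upper left.

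The 13 members that were not tested had few or no reads. CTSG, CTSW, NAPSA and DNASE2B had no read in any library, which allows up to 3 reads per library, or 0.145 to 0.178 CPM, as counting error alone. CTSO had 2, 0 and 0 reads in sh-ctrl and 1, 7 and 5 reads in sh-KIF11, and the groups overlapped. LAMP3 had 3, 2 and 5 reads against 8, 9 and 18 reads. For AP3S2 the deposited tables disagreed: it had 2 to 12 reads per library but 6.81 to 8.57 FPKM, and the readthrough gene C15orf38-AP3S2 overlaps it on the same strand.

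The ratio of mean TMM-scaled CPM to mean FPKM in sh-ctrl is a rough measure of the transcript length that would tie the count to the FPKM. CPM and FPKM are scaled differently, so the ratio also carries that difference and is not a length by itself. For 17 of the 105 tested members this sh-ctrl ratio was over 2 times the longest annotated transcript, among them AP1G2 (4.61 times), IDUA (3.42), ARSB (3.08), ARSG (2.91) and CTSH (2.89). The FPKM means gave these genes the same direction as the counts, with log2 ratios of 0.54 for AP1G2, 1.18 for IDUA, -0.65 for ARSB, 1.3 for ARSG and -0.62 for CTSH. In all, 84 of 105 tested members had the same sign in both tables, the FPKM values carrying no composition factor.

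Outside the pathway term, TFEB and its relatives moved in different directions. TFEB was at 21.9, 20 and 18 CPM in sh-ctrl and 13.9, 12.1 and 12.2 CPM in sh-KIF11 (log2 -0.65, SE 0.0964, edgeR adjusted p = 1.38e-07). TFE3 was at 74.9, 71 and 65.8 CPM against 89.7, 80.9 and 90.3 CPM (log2 0.3, SE 0.0592, edgeR adjusted p = 2.28e-05). MITF had 8, 8 and 12 reads against 23, 16 and 24 reads (log2 0.96, SE 0.385, edgeR adjusted p = 0.0252), and DESeq2 did not call it (adjusted p = 0.0703). Its edgeR call was lost without sh-ctrl 1 or sh-ctrl 2 (adjusted p = 0.0852 each), sh-KIF11 1 (0.0788) or sh-KIF11 3 (0.0983). The list of these factors and their regulators, 17 genes tested, had 7 higher (41.2%, beside 34.4%) and 6 lower (35.3%, beside 34.7%), with a median of 0.02. RRAGD, a Rag GTPase that ties nutrient state to TFEB, had 4, 4 and 5 reads against 28, 23 and 29 reads (log2 2.39, SE 0.426, edgeR adjusted p = 4.38e-06). Both RRAGD and MITF passed the filter on low counts only through the sh-KIF11 libraries, in which they were higher. Their values are therefore given as a description. Of 26 tested autophagy genes, whose products bring cargo to the lysosome, 13 were higher (50%, beside 34.4% of all tested genes). Another 5 were lower (19.2%, beside 34.7%), and the median was 0.12. GABARAPL1 rose from 12.7 to 23.6 CPM (log2 0.9, SE 0.0928) and BECN1 fell from 105 to 66.7 CPM (log2 -0.65, SE 0.0557). Of 21 tested genes for tethering and movement of late endosomes and lysosomes, 10 were higher (47.6%, beside 34.4%) and 7 lower (33.3%, beside 34.7%). BLOC1S2 in that list rose from 50.5 to 94 CPM (log2 0.9, SE 0.0634).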

How the data were processed

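RNA of 6 HepG2 libraries (TruSeq Stranded mRNA kit) was sequenced by the authors, who deposited whole-number read counts per gene and FPKM values. The submitters' processing notes name bcl2fastq 1.8.4, Trimmomatic, HISAT2 2.1.0, Cufflinks 2.2.1, HTSeq 0.9.1, DESeq and the builds GRCh38 and hg38; the strand setting of the counting is not given in the sources used here. Groups came from the sample labels. The deposited columns of the knockdown are headed shRNA with a number, and they were matched to the sh-KIF11 labels by that number. Counts were filtered with filterByExpr, scaled with TMM and tested with edgeR 4.0.16 (quasi-likelihood, Benjamini-Hochberg over 12369 genes, threshold 0.05) after a test on simulated data. FPKM entered limma as log2(FPKM + 1) or log2(FPKM + 0.1), and DESeq2 was an alternative. SE is the log2 fold change over the square root of the test's F. Depth was 18167773 to 19583282 counts, and replicates of a group differed by 2.67 to 8.11 times their sampling noise in chi-square per degree of freedom, so each was counted. Intervals and floors cover counting error only.

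The members and lists were chosen with earlier results of these data known. Named genes are GLB1, KIF11, a fixed set of well-known members, TFEB, TFE3 and MITF, and within each class the 3 largest rises and falls past the threshold without overlap at 1 CPM or more and the highest FPKM; GAA, HEXA, TPP1, MCOLN1, GALNS, CTSA, ATP6V0D2, CTSK, LYZ, AP3S2, LAMP3, CTSO, the 5 genes left out by symbol and all other genes outside the term were named after their values were seen. Gene positions and overlaps are from GENCODE release 29, in which all 118 members matched. Some members, counted in the totals, are not reported here.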

Additional observations from a re-analysis of the deposited data

How the results depend on the processing

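GLB1 (log2 -0.64 to -0.36) and KIF11 (-0.79 to -0.52) kept their direction and call under every alternative run, and the counts of called genes, members, hydrolases and membrane proteins stayed within 1.5 times those reported. The medians depend on the scaling. For all members the median of -0.15 became -0.07 with upper-quartile scaling, 0.08 with library totals, -0.13 with at least 10 counts in every library, and 0.03 with limma on log2(FPKM + 1) and on log2(FPKM + 0.1). For hydrolases -0.34 became -0.26, -0.11, -0.32, -0.16 and -0.17 in the same order. For membrane proteins -0.13 became -0.05 with upper-quartile scaling, 0.1 with library totals, 0.09 with both FPKM fits and -0.25 with the ABC and SLC genes kept in. Leaving out 1 library at a time gave -0.18 to -0.14 for members, -0.34 to -0.33 for hydrolases and -0.18 to -0.12 for membrane proteins.

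Values of single genes that turned sign with library totals, log2(FPKM + 1) and log2(FPKM + 0.1) were, in that order, 0.12, 0.15 and 0.16 for CD63, 0.18, 0.1 and 0.1 for CLTC, 0.07, 0.12 and 0.13 for GNPTG, 0.07, 0.02 and 0.02 for HEXA, 0.02, 0.01 and 0.01 for LAPTM4A and 0.22, 0.16 and 0.16 for TPP1. With library totals GALNS turned to 0.22 and M6PR to 0.01, and ATP6AP2 turned to 0.22 with library totals and 0.15 with log2(FPKM + 0.1). These settings carry no composition factor. Over the genes named besides GLB1 and KIF11 and all alternatives, 1058 comparisons kept the call, 47 lost it and 8 gained it. Another 22 turned sign with the value called before or after the turn. A turn in which neither value was called was counted as kept and is not listed above.

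Same-numbered libraries of the groups did not deviate together (correlations of deviations 0.04, -0.03 and 0.01). With 3 libraries per group this gives no sign of pairing by number but cannot exclude it. With the replicate number as a block 80 members, 37 hydrolases and 21 membrane proteins were called, GLB1 was at -0.61, KIF11 at -0.75, and 8607 genes were called in all. Genes with few reads, such as ATP6V0D2 and MITF, are limited by depth.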
